A study of Mus musculus with 20 samples.

Results

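The *Cyp4* family holds the cytochrome P450 enzymes that place a hydroxyl group on the last carbon of a fatty acid, and 10 of its members in mouse were followed here by name among 24411 genes in the counts of kidney RNA: *Cyp4a10*, *Cyp4a12a*, *Cyp4a12b*, *Cyp4a14*, *Cyp4a31*, *Cyp4a32*, *Cyp4b1*, *Cyp4f13*, *Cyp4f14* and *Cyp4f15*. Another 10 mouse *Cyp4* genes served for comparison. The kidneys came from 20 mice at P125, 5 in each of 4 groups: male controls (MC1 to MC5), male mutants (MM1 to MM5), female controls (FC1 to FC5) and female mutants (FM1 to FM5). Mutants carried *Pkd2* fl/fl with Pax8 rtTA and TetO Cre, which deletes *Pkd2* in the tubular cells where the Pax8 promoter is active once doxycycline is given. Controls were littermates that, per the study's methods, had no Pax8 rtTA or no TetO Cre. The labels do not say which transgene a given control lacked. Mice of all 4 groups received doxycycline at 50 mg per kg from P27 to P29. The study asked how late loss of *Pkd2* and sex shape cystic disease and gene expression. Each group had mice from 3 litters, named A, B and C in the labels, and the mouse numbers are names without order.

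Omega-hydroxylases sit in the endoplasmic reticulum and draw electrons from cytochrome P450 oxidoreductase. Their products are oxidised by alcohol and aldehyde dehydrogenases to dicarboxylic acids, which are shortened in peroxisomes. In the kidney they are best known for turning arachidonic acid into 20-HETE, a lipid that acts on vessel tone and on salt transport in the tubule, and the *Cyp4a* genes are expressed mainly in the proximal tubule. In mice *Cyp4a12a* is the main 20-HETE synthase and is induced by androgen, *Cyp4a10* and *Cyp4a14* are targets of the lipid-sensing receptor PPAR-alpha, *Cyp4b1* acts on shorter fatty acids and on foreign compounds, and *Cyp4f14* inactivates leukotriene B4.

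The *Cyp4a* genes and *Cyp4b1* form one cluster on chromosome 4 of GRCm38, and the *Cyp4f* members lie on chromosome 17 (GENCODE annotation). Along chromosome 4 the order is *Cyp4a12a* (from 115299046, plus strand), *Cyp4a12b* (from 115411624, plus), *Cyp4a14* (from 115486200, minus), *Cyp4a10* (from 115518264, plus), *Cyp4a31* (from 115563649, plus), *Cyp4a32* (from 115600969, plus) and *Cyp4b1* (115624725 to 115647723, minus). On chromosome 17 the order is *Cyp4f15* (from 32685627, plus), *Cyp4f14* (from 32905070, minus) and *Cyp4f13* (32924688 to 32947402, minus). The coding exons of 8 members around the I helix, the part of the enzyme that lies over the heme, are shown because they show at once how alike the copies are and where members differ. Capitals mark the codon at the place where most CYP4 enzymes have a glutamate that binds the heme, and each stretch of 33 bases is written in the direction of transcription.
Cyp4a12a: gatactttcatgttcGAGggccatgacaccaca
Cyp4a12b: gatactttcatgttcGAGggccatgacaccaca
Cyp4a10: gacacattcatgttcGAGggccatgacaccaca
Cyp4a32: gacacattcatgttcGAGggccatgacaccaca
Cyp4a31: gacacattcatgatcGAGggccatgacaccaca
Cyp4b1: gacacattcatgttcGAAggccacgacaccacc
Cyp4f14: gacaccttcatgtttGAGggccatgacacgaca
Cyp4f13: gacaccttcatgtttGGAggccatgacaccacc
*Cyp4a12a* and *Cyp4a12b* were identical over this stretch, as were *Cyp4a10* and *Cyp4a32*, and *Cyp4a31* differed from *Cyp4a10* at 1 base. *Cyp4f13* has GGA there, a codon for glycine, whereas the other 9 members have a codon for glutamate.

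The likeness of the copies extends over the transcripts and limits what the counts can separate. *Cyp4a12a* and *Cyp4a12b* were identical at 98.25% of 2395 aligned bases, *Cyp4a10* and *Cyp4a32* at 97.19% of 1530, and *Cyp4a31* and *Cyp4a32* at 96.01% of 1530. Of all windows of 50 bases, 48.9% in *Cyp4a12a* and 49.5% in *Cyp4a12b* also occurred in another gene, as did 46.8% in *Cyp4a32*, 30.5% in *Cyp4a10* and 21.8% in *Cyp4a31*. In *Cyp4b1* 10.3% of windows were shared, with its pseudogenes, and in *Cyp4a14* 0.25%. Between 2.45% and 2.72% were shared in the *Cyp4f* members. How reads from shared stretches were assigned is not given in the sources used here, so the separate values of *Cyp4a12a* and *Cyp4a12b*, and of *Cyp4a10*, *Cyp4a31* and *Cyp4a32*, are uncertain, and the summed counts of each set are given beside them.

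Total counts ranged from 11307741 to 19324073 per mouse. *Pkd2* was at 291 ± 31.1 CPM (the counts of a gene as a share of its library, with library sizes adjusted by edgeR's TMM method) in male controls and 119 ± 9.87 in male mutants, against 257 ± 49.1 in female controls and 145 ± 33.6 in female mutants (SD, n = 5 each). The library of FM4 stood apart, with 14850 genes detected against 16776 to 17724 in the other mice. It had 76 genes with exactly 1 count, against 708 to 859 in the other mice, so low counts in FM4 are uncertain. Values without FM4 are given where they matter. The 14 proximal tubule markers summed to 16136 to 20805 CPM in controls. Of the 5 adrenal cortex markers, *Cyp11b2* was at 0 in all 20 mice, and *Cyp11b1* and *Cyp21a1* were each at 0 in 19. *Hsd3b1* was at 0 in 9 mice and at most 0.205 CPM, but *Star* was at 3.51 to 7.8 CPM in all mice. The 5 hepatocyte markers, mostly *Apob*, which the kidney also expresses, summed to 279 to 405 CPM in male mutants, but 3 of them stood out in MM5, where *Alb* was at 54.1 CPM against at most 9.53 in the other males, *Ahsg* at 4.18 against at most 0.0812, and *Cps1* at 2.37 against at most 0.17. The 5 fat cell markers summed to 420 CPM in FM3, 124 in FC3 and 105 in FC5, and to at most 51.7 in any other mouse.

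Male and female kidneys differed in how much *Cyp4* messenger they held and in which genes supplied it. The 10 members summed to 4982 ± 188 CPM in male controls and 1598 ± 189 in female controls, without overlap, and to 5545 ± 932 in male mutants and 1516 ± 424 in female mutants (SD, n = 5). Divided by transcript length, *Cyp4b1* supplied 85.0% ± 2.17 of the pool in male controls, followed by *Cyp4a10* at 5.52% ± 1.07. In female controls the pool was spread over *Cyp4a14* at 35.1% ± 1.74, *Cyp4a10* at 31.3% ± 1.33, *Cyp4a31* at 16.3% ± 1.47 and *Cyp4b1* at 13.4% ± 3.09. In female mutants *Cyp4b1* held 36.9% ± 3.61, the largest share, with *Cyp4a14* at 25.7% ± 2.96 and *Cyp4a10* at 21.2% ± 2.52. In male mutants *Cyp4b1* held 87.0% ± 1.39 and *Cyp4a12a* 4.84% ± 0.632, against 2.32% ± 0.338 for *Cyp4a12a* in male controls. These shares are descriptions of the level per length, and a share can move because another member moved.

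**Figure D1:**
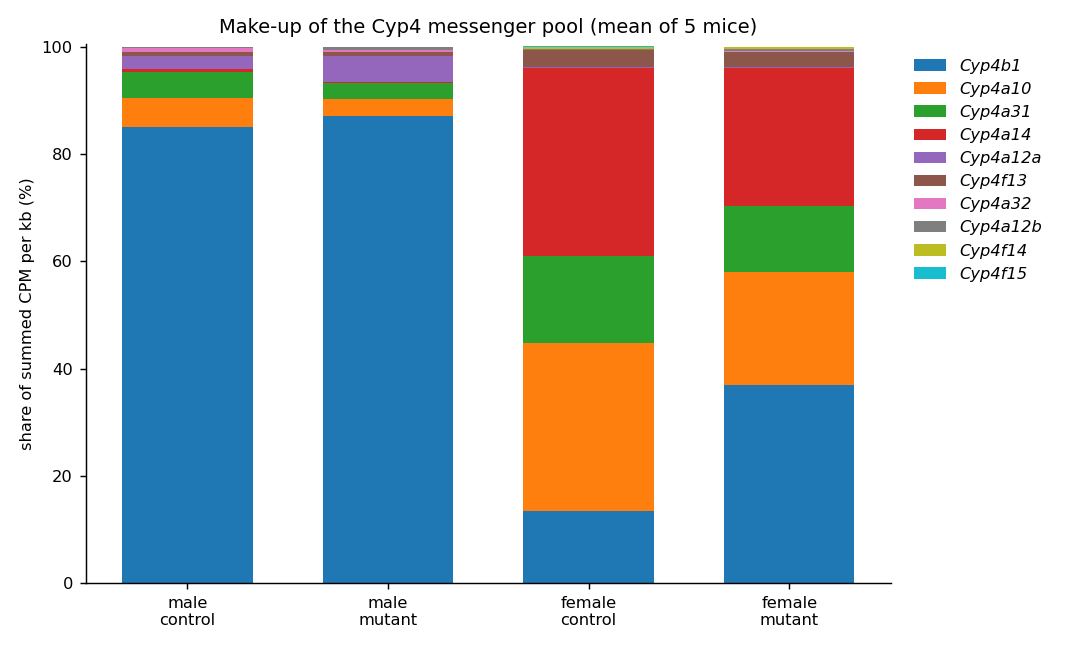
Share of each *Cyp4* gene in the summed level per kb of transcript (vertical axis, %), as the mean of the 5 mice in each group (bars). *Cyp4b1* fills 85.0% of the bar of male controls and 13.4% of that of female controls, and 36.9% in female mutants.

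Among controls, 7 of the 10 members differed between the sexes at an adjusted p under 0.01, the study's threshold for a call. Higher in males were 4 members, where 8.75% of the 14123 genes tested were called higher, and lower in males were 3, where 9.02% were called lower. In 23.9% of the genes tested all male controls lay above or below all female controls. The widest difference was that of *Cyp4a12a*. In male controls it was at 126, 142, 164, 114 and 174 CPM in MC1 to MC5, and in female controls at 1.91, 1.91, 2.36, 1.13 and 2.73 CPM in FC1 to FC5. No female reached 3 CPM, and the fitted fold was 68.1 (log2 fold change 6.09, SE 0.149, adjusted p = 3.84e-11). Taken litter by litter, the log2 difference was 6.13 in A, 5.95 in B and 5.93 in C.

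*Cyp4b1* and *Cyp4a32* were the other members with a difference of this order. *Cyp4b1* was at 4040, 4287, 3934, 3890 and 4432 CPM in male controls and 182, 191, 91.7, 200 and 244 CPM in female controls, a 22.6-fold difference (log2 fold change 4.50, SE 0.205, adjusted p = 1.4e-08). Each male control stood far above each female control, and litters A, B and C gave 4.49, 4.68 and 4.18. *Cyp4a32* was at 24.3 ± 2.99 CPM in male controls and 1.37 ± 0.227 in female controls (SD, n = 5), 18.9-fold higher (log2 fold change 4.24, SE 0.154, adjusted p = 2.1e-09), although neither *Cyp4a10* nor *Cyp4a31*, with which it shares stretches of sequence, was called higher in males. *Cyp4a12b*, the copy of *Cyp4a12a*, was 4.30-fold higher in males, at 16.0 ± 7.23 CPM against 2.96 ± 1.16 (log2 fold change 2.11, SE 0.249, adjusted p = 6.16e-05). In male controls there were 9.97 ± 3.45 counts of *Cyp4a12a* per count of *Cyp4a12b*, and in female controls 0.743 ± 0.334. With the counts of both copies summed, the difference between the sexes was 4.89 on the log2 scale.

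*Cyp4a14* ran the other way. Female controls had 632, 535, 532, 686 and 696 CPM, and male controls 22, 24.7, 59.7, 42.6 and 14.2 CPM. All females lay far above all males, and the level in males was 0.051 times that in females (log2 fold change -4.29, SE 0.332, adjusted p = 1.81e-06). The spread among male controls was wide, with a coefficient of variation of 56.2% against 12.9% in females. *Cyp4f14*, low in all mice, was at 2.07 ± 0.637 CPM in male controls and 6.42 ± 1.11 in female controls (log2 fold change -1.78, SE 0.208, adjusted p = 5.72e-05). *Cyp4a10* was at 297 ± 52.2 CPM in male controls and 463 ± 38.2 in female controls (log2 fold change -0.68, SE 0.113, adjusted p = 0.000844). Summed with *Cyp4a31* and *Cyp4a32* the difference was -0.29 and not called (adjusted p = 0.0397).

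For 2 of the members not called the estimate lay close to 0. *Cyp4a31* was at 309 ± 42.1 CPM in male and 286 ± 31.0 in female controls (log2 fold change 0.05, SE 0.088, adjusted p = 0.727), and *Cyp4f13* at 39.5 ± 2.26 and 37.9 ± 4.64 (0.05, SE 0.089, adjusted p = 0.739). *Cyp4f15* had 10 to 22 counts in male controls and 0, 1, 1, 3 and 11 in female controls, with a log2 fold change of 2.56 (SE 0.682, adjusted p = 0.0141). FC3, with the 11 counts, was also the female control with the most fat cell marker signal, 124 CPM, but FC5, at 105 CPM, had 1 count. The part of fat tissue in these counts was not tested. Without FC3 the log2 fold change was 3.62 and the gene was called. Scaled to the 14 proximal tubule markers in place of the library size, which lowered the median of all genes by 0.238 on the log2 scale, the same number of members was called, 7. That scale is not neutral between the sexes. Of the 14 markers, 3 were called higher in male controls and 2 lower, where 8.75% and 9.02% of all genes were. Their log2 fold changes ran from -0.685 to 1.555.

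**Figure D2:**
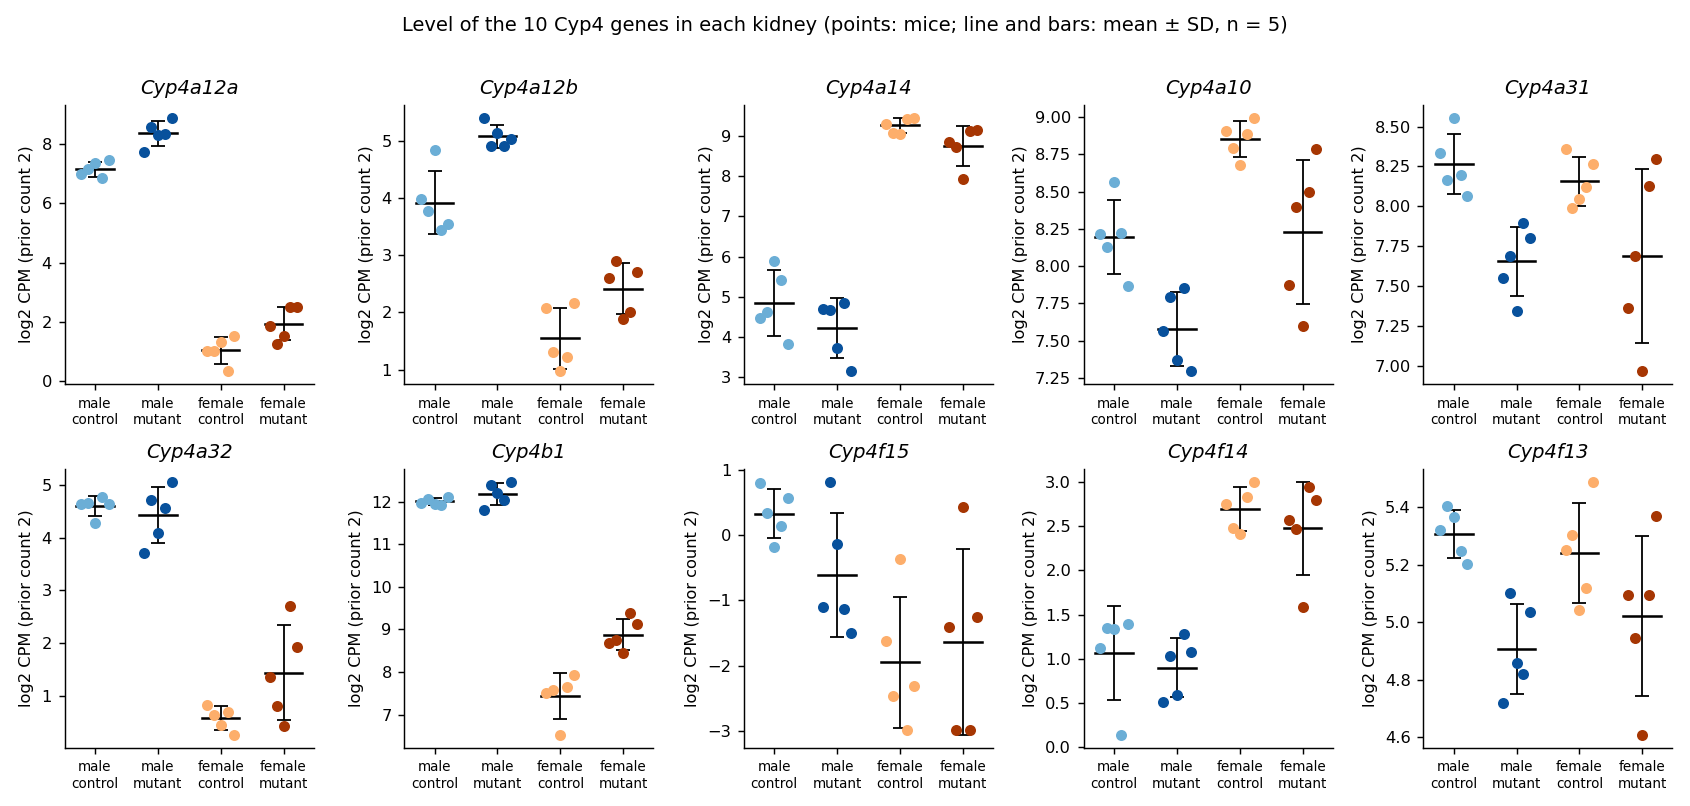
Level of each member in each kidney (points, log2 CPM with a prior count of 2) for the 4 groups of 5 mice, with the mean and SD as lines. *Cyp4a12a*, *Cyp4a32* and *Cyp4b1* sit higher in all males than in all females, *Cyp4a14* and *Cyp4f14* lower, and *Cyp4a31* and *Cyp4f13* overlap between the sexes.

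*Cyp4a12a* and *Cyp4a12b* had the same order of groups, from male mutants through male controls and female mutants down to female controls, and only the female groups overlapped. *Cyp4b1* had this order too, but there the male groups overlapped and the female groups did not. For *Cyp4a10* and *Cyp4a14* the order ran from female controls through female mutants and male controls to male mutants. Neighbours in the order overlapped, other than male controls and male mutants for *Cyp4a10* and female mutants and male controls for *Cyp4a14*. *Cyp4a31* and *Cyp4f13* ran from male controls through female controls and female mutants to male mutants, with all neighbours overlapping. Groups without overlap were common over all genes tested. Mutants and controls lay fully apart in 15.3% of genes in males and 7.06% in females. The sexes lay fully apart in 23.9% of genes among controls and 13.3% among mutants.

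The differences between the sexes were also found among mutants. Of the 9 members tested there, *Cyp4a12a*, *Cyp4a12b*, *Cyp4a32* and *Cyp4b1* were higher in males, where 3.59% of all genes were called higher, and *Cyp4a14* and *Cyp4f14* were lower, where 1.84% were called lower. The log2 fold changes were 6.48 for *Cyp4a12a*, 3.32 for *Cyp4b1*, 2.95 for *Cyp4a32*, 2.62 for *Cyp4a12b*, -4.57 for *Cyp4a14* and -1.65 for *Cyp4f14*. For *Cyp4a10* it was -0.66 (SE 0.229, adjusted p = 0.082). The calls of *Cyp4a32* and *Cyp4f14* depended on single mice: *Cyp4a32* was called in 7 of 10 fits that left 1 mouse out, and *Cyp4f14* in 2 of 10. Without FM4 all 6 were called.

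In males, *Cyp4a12a* and its copy *Cyp4a12b* rose in mutants while *Cyp4a10* and *Cyp4a31* fell. Of the 14010 genes tested, 5.25% were called higher in male mutants and 3.2% lower, and 2 members were called in each direction. In 15.3% of the genes tested all male mutants lay above or below all male controls. *Cyp4a12a* was at 210, 378, 318, 320 and 470 CPM in MM1 to MM5, each above the highest male control at 174. The rise was 2.35-fold (log2 fold change 1.23, SE 0.151, adjusted p = 0.000697), it was 0.98, 1.48 and 1.43 within litters A, B and C, and it was called in all 10 fits that left 1 mouse out. *Cyp4a12b* rose from 16.0 ± 7.23 to 33.9 ± 5.07 CPM (SD, n = 5), 2.30-fold (log2 fold change 1.20, SE 0.210, adjusted p = 0.00336), with 28.5 CPM in the highest control, MC3, and 29.8 in the lowest mutant, MM2. Summed, the copies rose by 1.23 on the log2 scale (adjusted p = 0.000517). Counts of *Cyp4a12a* per count of *Cyp4a12b* were 10.4 ± 3.61 in male mutants, within the spread of the male controls.

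*Cyp4a10* was at 296, 279, 378, 298 and 233 CPM in male controls and 189, 222, 166, 231 and 157 CPM in male mutants. The groups nearly met, in MC5 and MM4, and the level in mutants was 0.654 times that in controls (log2 fold change -0.61, SE 0.107, adjusted p = 0.00339). Litters A, B and C gave -0.62, -0.61 and -0.57. *Cyp4a31* was at 323, 287, 376, 293 and 268 CPM in controls and 187, 206, 162, 238 and 223 CPM in mutants, without overlap, and 0.663 times as high in mutants (log2 fold change -0.59, SE 0.118, adjusted p = 0.00602). In litter C the difference was smaller, -0.27, against -0.73 and -0.58 in A and B. With *Cyp4a32* added to both, the summed counts fell by 0.58 on the log2 scale (adjusted p = 0.00527).

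The other members did not pass the threshold in males. *Cyp4f13* came next, with 39.5 ± 2.26 CPM in controls and 30.0 ± 3.32 in mutants, no overlap, and a log2 fold change of -0.38 (SE 0.086, adjusted p = 0.0101). *Cyp4b1*, already high, was at 4116 ± 234 CPM in controls and at 3600, 5329, 4685, 4206 and 5684 CPM in mutants (log2 fold change 0.19, SE 0.110, adjusted p = 0.257). *Cyp4a14* had a log2 fold change of -0.68 (SE 0.282, adjusted p = 0.115), *Cyp4a32* of -0.16 (SE 0.195), *Cyp4f14* of -0.16 (SE 0.289) and *Cyp4f15* of -0.81 (SE 0.496).

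Of the 4 male calls, those of *Cyp4a12b*, *Cyp4a10* and *Cyp4a31* depended on single mice. MC4 was the only male control of litter B, so that leaving it out also took the litter's mutants out of the comparison, and then *Cyp4a12a* alone was called (log2 fold change 1.14, adjusted p = 0.00773), with *Cyp4a12b* at 1.07 (adjusted p = 0.0244), *Cyp4a10* at -0.62 (adjusted p = 0.0234) and *Cyp4a31* at -0.60 (adjusted p = 0.0346). Without MM5, the mouse with hepatocyte transcripts, *Cyp4a12a* stayed at 1.18 (adjusted p = 0.00312) and *Cyp4a31* at -0.68 (adjusted p = 0.00765), and *Cyp4a10* and *Cyp4a12b* were at -0.62 (adjusted p = 0.0102) and 1.13 (adjusted p = 0.0122).

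In females, no member was called by edgeR among 9 tested, where 0.457% of the 14439 genes tested were called higher in mutants and 0.18% lower. Leaving out FM4 alone took the genes called in females from 92 to 866. At an unadjusted p under 0.05 there were 6 members and 2979 of all genes, and DESeq2 called 944 genes, with *Cyp4b1* as the only member. *Cyp4b1* missed the threshold narrowly. It was at 182, 191, 91.7, 200 and 244 CPM in female controls and 410, 429, 351, 664 and 562 CPM in female mutants. Each mutant stood above each control, and the 2 groups lay fully apart in 7.06% of all genes tested in females. The fold of *Cyp4b1* was 2.72 (log2 fold change 1.44, SE 0.231, adjusted p = 0.0103), and litters A, B and C gave 1.17, 1.61 and 1.20. Without FM4 the log2 fold change was 1.26 and the gene was called (adjusted p = 0.00367), as one of the 866. The highest female mutant, at 664 CPM, was far under the lowest male, MM1 at 3600. FM3, with the most fat cell signal of all mice, had the lowest *Cyp4b1* of the female mutants, and FC3 the lowest of the female controls. But FC5, with fat cell markers at 105 CPM against 124 in FC3, had the highest *Cyp4b1* of the female controls, 244 CPM. FM3 also had the highest kidney to body weight of the female mutants. The part of fat tissue in these values was not tested.

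Of the other 8 members tested in females, 7 had the sign they had in males and *Cyp4a32* did not, and none was called. *Cyp4a12a* was at 1.13 to 2.73 CPM in female controls and at 3.53, 2.28, 2.79, 5.61 and 5.53 CPM in mutants, an overlap of few counts (log2 fold change 0.98, SE 0.309, adjusted p = 0.096). *Cyp4a12b* was at 2.96 ± 1.16 and 5.42 ± 1.65 CPM (0.96, SE 0.267, adjusted p = 0.063). *Cyp4a10* was at 480, 444, 409, 473 and 510 CPM in controls and at 234, 337, 194, 361 and 441 CPM in mutants (-0.57, SE 0.167, adjusted p = 0.0747), with FM5 inside the range of controls and litters A, B and C at -1.03, -0.62 and -0.21. *Cyp4a14* was at 616 ± 79.4 CPM in controls and 450 ± 131 in mutants (-0.44, SE 0.183, adjusted p = 0.196), and *Cyp4a31* at 286 ± 31.0 and 218 ± 78.8 (-0.41, SE 0.194, adjusted p = 0.27). *Cyp4a32* had 1.37 ± 0.227 CPM in controls and 3.06 ± 2.08 in mutants (1.14, SE 0.447, adjusted p = 0.175), a difference that was 0.57 without FM4, its highest mutant. *Cyp4f13* and *Cyp4f14* had log2 fold changes of -0.19 (SE 0.104) and -0.16 (SE 0.236). *Cyp4f15*, with 0 to 24 counts in any mouse, was too low to be tested in females, at 0.195 ± 0.264 CPM in controls and 0.352 ± 0.502 in mutants.

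With both sexes joined, 6 of the 9 members tested were called. *Cyp4a12a* (log2 fold change 1.15, SE 0.150, adjusted p = 3.49e-05), *Cyp4a12b* (1.09, SE 0.171, adjusted p = 0.000157) and *Cyp4b1* (0.83, SE 0.205, adjusted p = 0.00573) were higher in mutants, where 10% of the 14191 genes tested were called higher. *Cyp4a10* (-0.59, SE 0.108, adjusted p = 0.000562), *Cyp4a31* (-0.50, SE 0.127, adjusted p = 0.00699) and *Cyp4f13* (-0.29, SE 0.071, adjusted p = 0.00547) were lower, where 5.86% were called lower. *Cyp4a12a*, *Cyp4a12b* and *Cyp4a10* were called in all 20 fits that left 1 mouse out, *Cyp4f13* in 15, *Cyp4b1* in 14 and *Cyp4a31* in 9. *Cyp4a14* was not called (-0.55, SE 0.183, adjusted p = 0.0318).

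Whether a member changed differently in the 2 sexes was tested with the sex by genotype term, which is the log2 fold change in males less that in females. Of 14820 genes tested by edgeR, 0% were called, 618 had an unadjusted p under 0.05, and among those were 2 members. The term was -1.23 for *Cyp4b1* (SE 0.287, unadjusted p = 0.000505, adjusted p = 0.346) and -1.23 for *Cyp4a32* (SE 0.491, unadjusted p = 0.0224, adjusted p = 1). Without FM4 the terms were -1.04 for *Cyp4b1* (unadjusted p = 0.000714) and -0.70 for *Cyp4a32* (unadjusted p = 0.0802). DESeq2 called 18 genes, with *Cyp4b1* among them (-1.24, adjusted p = 0.00882). For *Cyp4a12a* and *Cyp4a10* the terms were 0.31 (SE 0.326) and -0.02 (SE 0.223).

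**Figure D3:**
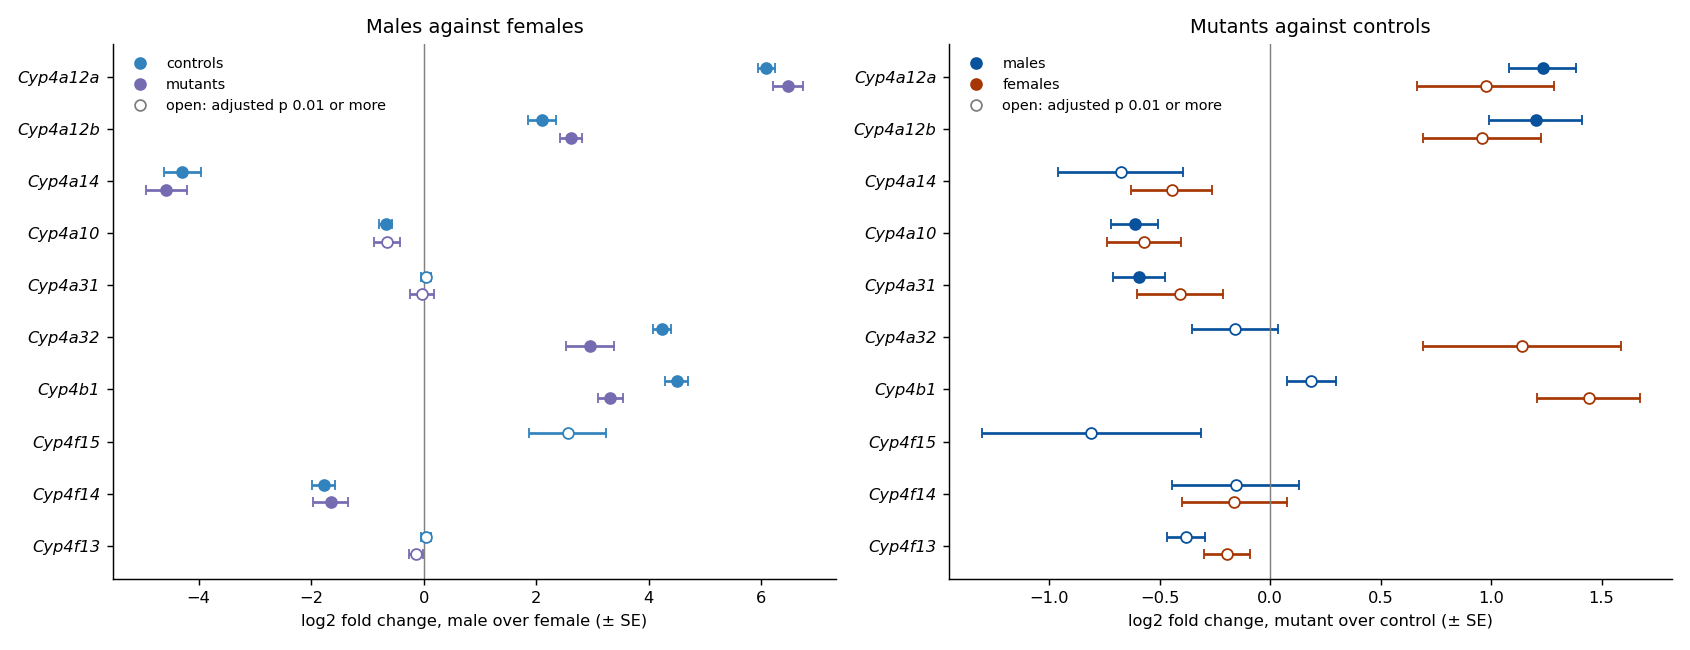
Log2 fold change of each member with its SE (horizontal axis), for males over females (left, in controls and in mutants) and for mutants over controls (right, in males and in females). Filled points have an adjusted p under 0.01, and genes follow their order on chromosomes 4 and 17. At right the points of *Cyp4b1* lie at 0.19 in males and 1.44 in females.

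The proximal tubule, where the *Cyp4a* genes are chiefly expressed, gave less signal in part of the mutants. Its 14 markers summed to 19823 to 20805 CPM in male controls and 13696 to 20756 in male mutants, and to 16136 to 18633 in female controls and 9952 to 18617 in female mutants. None of the markers was at 0 in a group. In male mutants, where 3.2% of all genes were called lower, 2 of the 14 fell, *Slc13a3*, a dicarboxylate transporter, and *Miox*, an inositol oxygenase. The median log2 fold change of the list was -0.14 in males and -0.30 in females, against 0.00 over all genes. In whole kidneys, fewer cells of a type and less RNA per cell cannot be told apart. Scaled to the summed markers in place of the library size, the median of all genes in males rose by 0.235, to 0.233. On that scale *Cyp4a12a* was at 1.43 (adjusted p = 4.5e-05), *Cyp4a12b* at 1.47 (adjusted p = 0.00168) and *Cyp4b1*, now called, at 0.40 (adjusted p = 0.00162). *Cyp4a10* at -0.39 (adjusted p = 0.051) and *Cyp4a31* at -0.36 (adjusted p = 0.0682) were no longer called. In females the median of all genes moved by 0.354, and *Cyp4b1* was at 1.76 and called (adjusted p = 0.00232). With the sexes joined the shift was 0.300, and *Cyp4a10* (-0.32, adjusted p = 0.0123), *Cyp4a31* (-0.23, adjusted p = 0.0586) and *Cyp4f13* (-0.01, adjusted p = 0.965) were not called. Signs turned for *Cyp4a32* and *Cyp4f14* in males, for *Cyp4f13* and *Cyp4f14* in females and for *Cyp4f14* with the sexes joined, in each case without a call on either scale.

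Kidney to body weight (KBW, weight of the kidney as a percentage of body weight) was 1.68% ± 0.338 in male mutants, 1.18% ± 0.261 in female mutants, 0.692% ± 0.117 in male controls and 0.615% ± 0.0448 in female controls (SD, n = 5). Among the 10 mutants, with sex as a covariate, the slope of a member's level on KBW was below 0 for 8 of the 9 tested, and none was called by edgeR, which called 0% of 14416 genes. At an unadjusted p under 0.05 there were 3212 genes, 7 members among them, and DESeq2 called 585 genes, with *Cyp4a32* and *Cyp4b1* among them. In log2 units per percentage point of KBW the slope was -1.84 (SE 0.516, adjusted p = 0.0724) for *Cyp4a32*, -1.14 (SE 0.444) for *Cyp4f14*, -1.12 (SE 0.375) for *Cyp4a12a*, -0.92 (SE 0.321) for *Cyp4a31*, -0.88 (SE 0.261, adjusted p = 0.0842) for *Cyp4b1*, -0.81 (SE 0.296) for *Cyp4a10*, -0.69 (SE 0.501) for *Cyp4a14* and -0.52 (SE 0.211) for *Cyp4f13*. *Cyp4a12b* had the slope above 0, at 0.38 (SE 0.324).

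Among female mutants the order of *Cyp4b1* was the reverse of the order of KBW. FM4 and FM5, with KBW at 0.836% and 1.00%, had 664 and 562 CPM of *Cyp4b1*, whereas FM2, FM1 and FM3, at 1.24%, 1.38% and 1.46%, had 429, 410 and 351. For *Cyp4a10* the same mice in that order had 361, 441, 337, 234 and 194 CPM, and *Cyp4a31* had 280, 314, 206 and 164 CPM in the first 4 of them and was again lowest in FM3. Male mutants did not line up so closely. MM1, with the highest KBW at 2.15%, had the lowest *Cyp4b1* and *Cyp4a12a* of its group, but MM5, at 1.71%, had the highest, with 5684 CPM of *Cyp4b1* against 5329 in MM2, which had the lowest KBW at 1.22%. Fitted alone, the slope of *Cyp4b1* was -0.52 (SE 0.352) in males and -1.31 (SE 0.324) in females, and that of *Cyp4a31* was -0.30 (SE 0.265) and -1.87 (SE 0.411). The difference between these slopes was not tested. *Cyp4a12a* gave the odd pair: its level was higher in mutants than in controls of both sexes, called in males, while its slope among mutants was below 0.

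**Figure D4:**
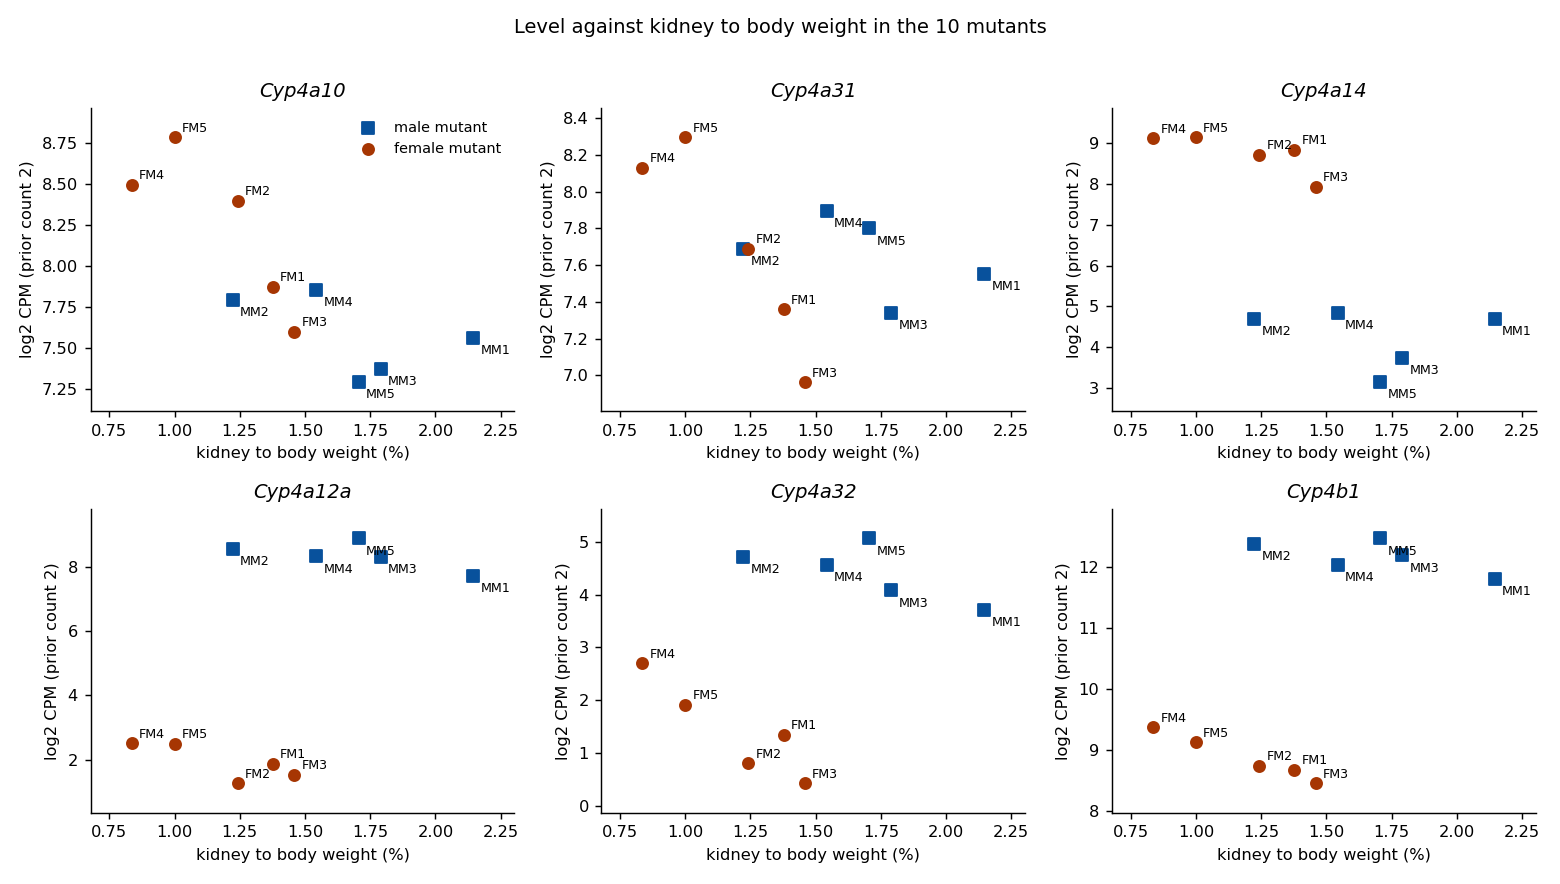
Level of 6 members (log2 CPM, prior count 2) against KBW (%) in the 10 mutants, squares for males and circles for females. Within females *Cyp4b1* is highest in FM4 and lowest in FM3, and *Cyp4a12a*, *Cyp4a32* and *Cyp4b1* lie apart between the sexes.

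The proximal tubule markers moved with KBW as well. All 14 slopes were below 0, from -1.70 to -0.52 with a median of -0.83, against -0.06 over all genes, and the summed markers were at 18617 and 17863 CPM in FM4 and FM5 but at 12254, 12041 and 9952 in FM2, FM1 and FM3. Scaled to the markers, which raised the median of all genes by 0.886, the slopes of *Cyp4b1* and *Cyp4a10* were 0.02 and 0.07, that of *Cyp4a32* was -1.02, and 4 members were below 0. On that scale the slope of *Cyp4a12a* was -0.30 (SE 0.284), in place of -1.12. That of *Cyp4a12b* was 1.20 (SE 0.379, adjusted p = 0.0246 by edgeR), not called. Without FM4, the mouse with the lowest KBW and the library that stood apart, the slopes were -0.72 for *Cyp4b1*, -1.38 for *Cyp4a32*, -0.83 for *Cyp4a10* and -1.02 for *Cyp4a12a*. Without MM1, the mouse with the highest KBW, the slope was -1.33 for *Cyp4a10*, -1.77 for *Cyp4a14* and 0.15 for *Cyp4a12b*, and without FM3 it was -0.58 for *Cyp4a10*, -0.40 for *Cyp4a14* and 0.65 for *Cyp4a12b*. With litter added the slopes were -0.82 for *Cyp4b1*, -1.73 for *Cyp4a32*, -0.80 for *Cyp4a10* and -0.99 for *Cyp4a12a*.

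Genes that supply the *Cyp4* enzymes with electrons or act on their products were measured beside them. For the lists that follow, 8.75% of all genes tested were called higher in male than in female controls and 9.02% lower. In mutants against controls the shares were 5.25% higher and 3.2% lower in males, and 0.457% and 0.18% in females. Of the 4 electron donors, *Cyb5a* (1.36), *Cyb5r3* (0.80) and *Cyb5b* (0.49), which form the cytochrome b5 path, were higher in male than in female controls by these log2 fold changes, and *Por*, the oxidoreductase itself, was not called. *Por* was lower in male mutants (-0.42, SE 0.084, adjusted p = 0.00613) and had a log2 fold change of -0.47 in females (SE 0.136, adjusted p = 0.0736). All 3 dehydrogenases that act on the omega-hydroxylated products were higher in male controls, *Adh1* by 2.14, *Aldh3a2* by 1.23 and *Adh5* by 0.49, and none was called between mutants and controls in either sex.

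Of the 11 genes of peroxisomal oxidation, 4 were higher in male controls, among them *Crot* (1.30), a carnitine transferase, and 1 was lower, the thioesterase *Acot3* (-1.60). In male mutants, where 3.2% of all genes were called lower, 3 fell, *Crot* (-0.54), *Acot3* (-0.85) and *Ehhadh* (-0.44), the bifunctional enzyme. None rose, and the list median was -0.23. In females none was called (list median -0.26). Of the PPAR-alpha genes outside *Cyp4*, 3 of the 15 tested fell in male mutants, *Acadm* (-0.39), *Acot1* (-0.32) and *Cpt2* (-0.33), and none rose, with a list median of -0.13. In female mutants none of 16 was called, with 0.97 for *Fabp1* (adjusted p = 0.0727), a fatty acid binding protein.

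Other genes of the arachidonic acid pathway also differed between the control sexes. *Ephx2*, the soluble epoxide hydrolase, was higher in male controls by 1.58, and the epoxygenase *Cyp2j5* by 0.95. The epoxygenase *Cyp2c44* was lower by a log2 fold change of -0.98. In all, 2 of 7 were higher and 3 lower, where 8.75% and 9.02% of all genes were. *Cyp2j5* fell in male mutants (-0.40, SE 0.089, adjusted p = 0.00951), the 1 of 7 that was called. Of the 10 hormone receptors and factors of sex-dependent expression, the prolactin receptor *Prlr* was lower in male controls (-3.91, SE 0.213, adjusted p = 6.15e-08) and the estrogen receptor *Esr1* higher (0.69, SE 0.140, adjusted p = 0.00291). In male mutants the growth hormone receptor *Ghr* fell (-0.37, SE 0.074, adjusted p = 0.00634), and in female mutants none was called, with -0.68 for *Prlr* (adjusted p = 0.0601).

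The other mouse *Cyp4* genes were low. Of 10, 4 were high enough to be tested, and none of them was called between the sexes or between genotypes within a sex. *Cyp4v3*, the counterpart of human CYP4V2, was at 8.58 ± 0.979 CPM in male controls, 11.7 ± 2.84 in male mutants, 12 ± 1.28 in female controls and 15.7 ± 3.06 in female mutants, and was called higher in mutants with the sexes joined (log2 fold change 0.43, SE 0.099, adjusted p = 0.00373). *Cyp4f16*, *Cyp4f17* and *Cyp4f18* had log2 fold changes of 0.33 (SE 0.113), -0.19 (SE 0.090) and 1.38 (SE 0.443) in that comparison, none called. *Cyp4f39* had 1 to 20 counts in a mouse, *Cyp4a29* had none in any mouse, and *Cyp4a30b*, *Cyp4f37*, *Cyp4f40* and *Cyp4x1* had at most 2 counts in a mouse.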

How the data were processed

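RNA of 20 mouse kidneys was sequenced. Per the study's methods and the labels, read trimming by the authors used fastp 0.23.2 and alignment to mm10 used STAR 2.7.10b, and the deposited values are whole-number counts per gene symbol without normalization. The counting tool, annotation, strandedness and handling of multiply mapped reads are not given in the sources used here. KBW used the weight of 1 kidney, per the study's methods. Replicates are separate mice.

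Counts were analysed with edgeR 4.0.16 in R 4.3.3 (TMM, filterByExpr in each comparison, quasi-likelihood test, Benjamini-Hochberg adjustment over all genes tested, called at an adjusted p under 0.01). Litter was a covariate, the 6 groups of sex and litter with all 20 mice, and sex for KBW. With the sexes joined, the filter used genotype as the group. CPM used TMM library sizes and log2 CPM a prior count of 2. Levels per kb used the longest protein-coding transcript of GENCODE for GRCm38, which for *Cyp4a32* holds 1530 bases. Procedures were tested on simulated data. The members and gene lists were chosen with earlier results of these data known. Named besides the 10 members are, of each list, the 3 tested genes with the smallest p, all other *Cyp4* genes, *Pkd2*, and for 4 members the 3 genes of at least 5 CPM most alike in level. Some genes that this rule names are not reported here. Single markers of liver, fat and adrenal gland were named after their values were seen. Alternatives were DESeq2 1.42.0 (size factors, Wald test), no filter, at least 10 counts in every mouse, each mouse left out, near-identical copies summed, scaling to proximal tubule markers, other covariates, all 20 mice in 1 fit, and KBW in 1 sex.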

Additional observations from a re-analysis of the deposited data

Results flagged for a closer look

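In the 40 sets of 5 mice, each a member in a group, 2 had a mouse far from the other 4 by Dixon's test, and chance alone gives about 1 in 20. *Cyp4a32* in male control MC3 was at 19.2 CPM against 24.8 to 27.3 in the others (gap over range 0.729 on the log2 scale). *Cyp4f14* in male control MC4 was at 0.974 CPM, from 12 counts, against 2.05 to 2.51 in the others (gap over range 0.781), and without MC4 its log2 fold change in male mutants was -0.47 in place of -0.16, called in neither case.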

How the results depend on the processing

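No called member changed sign under any alternative run. No paired analysis was possible because the labels carry no replicate numbers, and the litters, which they do carry, were a term in every comparison other than that of KBW. The number of members called between male mutants and controls was 4 and became 2 with all 20 mice in 1 fit. In females it was 0 and became 1, *Cyp4b1* each time, with DESeq2's test, no filter, at least 10 counts in every mouse, marker scaling, no litter term and all 20 mice. With the sexes joined it went from 6 to 3 with marker scaling, and DESeq2's test gave 1 in place of 0 for the sex by genotype term and 2 in place of 0 for KBW. The other counts stayed within 1.5 times, 6 to 8 between control sexes and 6 to 7 between mutant sexes.

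With 1 mouse left out, the counts were 1 (without MC4) to 5 in males, 0 to 1 (without FM4) in females, 3 (without FC2) to 6 with the sexes joined, 7 to 8 between control sexes and 4 (without FM1, FM5 or MM5) to 6 between mutant sexes. In males *Cyp4a31* lost its call without MC1, MC2, MC3, MC4, MM1 or MM3, *Cyp4a10* without MC4, MC5 or MM5, and *Cyp4a12b* without MC1, MC4, MC5 or MM5, and *Cyp4f13* gained one without MM2. With the sexes joined *Cyp4a31* lost its call without FC1, FC2, FC3, FC4, FM1, FM2, MC1, MC4, MM1, MM2 or MM3, *Cyp4b1* without FC1, FC2, FC4, FC5, FM1 or FM5, and *Cyp4f13* without FC2, MC2, MC4, MM1 or MM4. Between mutant sexes *Cyp4a32* lost its call without FM1, FM5 or MM5, and *Cyp4f14* without FM1, FM2, FM5 or any 1 of the male mutants. The cause was not tested beyond the fewer mice in each fit. Depth limits *Cyp4f15*, and *Cyp4a12a*, *Cyp4a12b* and *Cyp4a32* in females, to between 0 and 123 counts a mouse.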

Other observations

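Mouse-to-mouse variation within groups joined some members and not others. With each group's mean removed, *Cyp4a10* and *Cyp4a31* had a Pearson correlation of 0.876 over the 20 mice and *Cyp4a10* and *Cyp4a14* of 0.77, whereas the near-identical *Cyp4a12a* and *Cyp4a12b* had 0.037. These are descriptions over mice that share group and litter, and *Cyp4a10* and *Cyp4a31* also share stretches of sequence. Outside the family, among 11394 genes and measured in the same way, the levels most like that of *Cyp4a12a* were those of *Slc18a1* (0.809), *Glyat* (0.803) and *Tcf25* (0.802), and most like *Cyp4a10* were *Nrbp2* (0.833), *Rbm10* (0.824) and *Fam217a* (0.823). For *Cyp4a14* they were *Ece2* (0.768), *Hpgd* (0.736) and *Kank3* (0.727), and for *Cyp4b1* *4930481A15Rik* (0.907), *Nit1* (0.869) and *Clcc1* (0.867). For each member these are the highest of 11394 correlations, and how high chance alone would reach was not tested.

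*Cyp4f15* had 24 counts in FM3, 5 in FM1, 5 in FM5 and 0 in FM2 and FM4. The 0 of FM4 is uncertain, because that library had few genes with 1 count. FM3 was also the mouse with the largest sum of fat cell markers, 420 CPM, against 0.606, 3.35, 0.48 and 7.5 CPM in FM1, FM5, FM2 and FM4. Among female controls, FC3 and FC5 had fat cell marker sums of 124 and 105 CPM but 11 and 1 counts of *Cyp4f15*. Whether fat tissue carried the counts was not tested.

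Markers of other cells moved between genotypes beside the members. In male mutants 3 of 4 fibroblast markers, 3 of 4 macrophage markers and all 3 injury markers rose, while 4 of 5 markers of the thick limb and distal tubule and 2 of 4 podocyte markers fell, where 5.25% and 3.2% of all genes were called higher and lower. In female mutants, where 0.457% and 0.18% of all genes were called, *Havcr1* rose and *Slc12a3* fell, and no fibroblast, macrophage or podocyte marker was called. The list medians were 1.54 in females and 1.78 in males for fibroblasts, 1.43 and 1.54 for macrophages and -0.53 and -0.61 for podocytes, and edgeR called none of these markers for the sex by genotype term, for which it called 0% of all genes. Their part in the members' changes was not tested.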
